A study of Mus musculus with 12 samples.

Results

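Of the 12151 genes in the deposited expression table, 29 were segments of the loci that encode antigen receptors, the immunoglobulins of B cells and the receptors of T cells. They were chosen by symbol alone, as every gene named as a heavy chain V, D, J or constant segment, a kappa or lambda segment, or a segment of the T cell receptor gamma, beta or alpha locus. The 29 members were 14 heavy chain V segments, 3 heavy chain constant genes (Ighm, Ighd and Ighg2b), 2 kappa V segments and the kappa constant gene Igkc, 3 T cell receptor gamma constant genes (Tcrg-C1, Tcrg-C2 and Tcrg-C3) and 6 T cell receptor alpha V segments. Values were measured in 12 RNA-seq libraries of mouse pre-B cells carrying BCR-ABL1, an oncogenic kinase that was introduced by retrovirus to make them leukemic (B-ALL).

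All groups shared BCR-ABL1 and a Ctnnb1 allele with a floxed exon 3 (Ctnnb1Ex3fl/+), cultured from the marrow of mice aged 6 to 12 weeks. Cas9 ribonucleoprotein was delivered by electroporation. WT cells received nontargeting guides, and KO cells received guides that target the genes of the lymphoid transcription factors Ikaros (Ikzf1) and Aiolos (Ikzf3). Lines were then grown from single cells. ERT2 or Cre-ERT2 was then introduced together with GFP, GFP+ cells were sorted, and 4-OHT, the ligand of ERT2, switches on Cre so that loss of exon 3 stabilizes β-catenin; day 1 after 4-OHT is named in the labels, in a sentence on ChIP-seq. Each of the 4 combinations of background (WT or KO) and vector (ERT2 or Cre-ERT2) had 3 libraries. The labels do not say which single-cell line a library came from, nor whether the 3 libraries of a group were separate lines or cultures, so P values measure the spread between these libraries, which may be technical. An effect of the edited genes and a difference between founder lines cannot be told apart here. The same holds for stabilization of β-catenin, since ERT2 and Cre-ERT2 libraries may come from different lines. Responses to β-catenin and β-catenin effects are named below under this limit.

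A developing lymphocyte builds its receptor gene by cutting and joining V, D and J segments with the RAG recombinase, and each cell keeps the joined segments, which all of its daughters inherit. The joined heavy chain V segment is transcribed with the constant gene Ighm, and the μ protein pairs with the surrogate light chain to form the pre-B cell receptor before the kappa and lambda loci are joined. Segments that have not been joined can also be transcribed from their own promoters, as germline transcripts, and so can the constant genes of the T cell receptor gamma locus in cells that are not T cells. The V content of a leukemic line is for this reason a tag of its founder cell as well as an expression readout.

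GENCODE M21 lists 571 genes under the same symbol rule, so the 29 members are a small share of the annotated segments. The table held 14 of 185 annotated heavy chain V segments, 3 of 8 heavy chain constant genes, 3 of 166 kappa genes, 3 of 10 T cell receptor gamma genes and 6 of 129 T cell receptor alpha genes. It held none of the 24 heavy chain D or J segments, none of the 12 lambda genes and none of the 37 T cell receptor beta genes. No source used here says how genes were selected for the table, so a segment outside it was not analysed here and is not shown to be silent. Identifiers of 28 of the 29 members were found in GENCODE M21 (GRCm38), and Igkv2-109 has no position here for this reason.

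Library medians lay between 9.06 and 9.11, and the correlation between libraries of a group across genes was 0.9994 to 0.9997. All 10 B lineage markers, among them Pax5 and Ebf1, were in the table. Of 12 T cell markers 4 were (Lck, Lat, Cd2 and Cd28), whereas Cd3d, Cd3e, Cd3g, Cd4, Cd8a, Cd8b1, Thy1 and Bcl11b were not listed. Of the markers of other cells, 2 of 6 for NK cells, 3 of 9 for myeloid cells, 4 of 6 for plasma cells and 0 of 6 for erythroid cells were in the table. The summed unlogged level of the NK markers was 102 to 103 in WT and 360 to 415 in KO libraries, with Nkg7, a granule protein gene, 2.03 and 1.90 higher in KO (ERT2, then Cre-ERT2) and Klrb1c not called. That of the myeloid markers was 231 to 241 in WT and 385 to 468 in KO libraries, with Lyz2, the lysozyme gene, 0.99 and 1.23 higher and Itgam and Fcgr3 lower. That of the plasma cell markers was 6726 to 8008 in WT and 4683 to 6062 in KO libraries. Of these, Irf4 was 0.77 and 0.52 lower in KO (ERT2, then Cre-ERT2) and Xbp1 was 0.27 and 0.15 lower. Sdc1 was 0.19 and 0.26 higher, and Prdm1 was not called in either. The defining markers Ncr1, Csf1r and Mpo were not listed, and the part of other cells in the KO against WT differences of members was not tested. The check of the targeted genes was mixed. Ikzf3 was lower in libraries labelled KO, by 0.65 in ERT2 and 0.70 in Cre-ERT2 libraries on the log2 scale, while Ikzf1 was higher by 1.01 and 0.90, and mRNA does not show whether a frameshift was present. The name KO is used for these libraries as their labels give it.

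The heavy chain V segments on which the results turn are shown first, as bases 1 to 240 of the spliced coding sequence of each segment in GENCODE M21 (GRCm38), 5′ to 3′, each from 2 exons on the minus strand of chromosome 12. Capitals mark bases covered by at least 1 stretch of 31 bases that occurs in no other annotated gene, and lower case marks bases at which every such stretch also occurs in another gene. Ighv5-2 (chr12:113578504-113578990) and Ighv5-4 (chr12:113597446-113597905) are the V members that differed in their response to β-catenin. Ighv14-2 (chr12:113994469-113994898) and Ighv1-53 (chr12:115158403-115158835) had the largest KO against WT differences of either sign among heavy chain V members in ERT2 libraries, and were chosen after their values were seen.
Ighv5-2: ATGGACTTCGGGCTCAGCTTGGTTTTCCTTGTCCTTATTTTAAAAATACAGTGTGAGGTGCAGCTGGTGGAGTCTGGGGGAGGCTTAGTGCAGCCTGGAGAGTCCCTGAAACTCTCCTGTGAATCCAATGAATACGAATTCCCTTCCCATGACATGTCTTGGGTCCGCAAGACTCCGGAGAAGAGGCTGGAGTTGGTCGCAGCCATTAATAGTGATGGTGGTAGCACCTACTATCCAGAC
Ighv5-4: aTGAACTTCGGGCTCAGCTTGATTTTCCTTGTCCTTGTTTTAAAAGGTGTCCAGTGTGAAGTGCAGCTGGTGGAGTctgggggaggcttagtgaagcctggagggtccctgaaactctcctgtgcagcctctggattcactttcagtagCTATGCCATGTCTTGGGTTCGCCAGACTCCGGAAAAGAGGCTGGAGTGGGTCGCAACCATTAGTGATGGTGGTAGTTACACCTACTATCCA
Ighv14-2: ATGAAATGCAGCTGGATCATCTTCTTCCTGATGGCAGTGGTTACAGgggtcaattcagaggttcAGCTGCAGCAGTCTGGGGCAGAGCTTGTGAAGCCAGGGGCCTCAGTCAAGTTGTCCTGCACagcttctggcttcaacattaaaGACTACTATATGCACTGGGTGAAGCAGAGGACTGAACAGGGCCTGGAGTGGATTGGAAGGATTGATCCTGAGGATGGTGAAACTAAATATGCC
Ighv1-53: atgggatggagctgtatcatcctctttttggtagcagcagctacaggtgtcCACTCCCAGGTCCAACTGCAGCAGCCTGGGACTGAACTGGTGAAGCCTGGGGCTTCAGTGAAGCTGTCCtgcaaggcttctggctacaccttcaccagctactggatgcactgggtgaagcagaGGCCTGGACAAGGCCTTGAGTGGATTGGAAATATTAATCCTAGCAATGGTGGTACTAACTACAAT
Ighv5-2 and Ighv5-4 were identical at 303 of 347 aligned bases (87.3%), and Ighv14-2 and Ighv1-53 at 276 of 351 (78.6%). Over whole transcripts, 9.3% of the 31-base stretches of Ighv5-2 were shared with other genes, against 38.7% for Ighv5-4, 58.6% for Ighv14-2 and 72.9% for Ighv1-53. Reads from such shared stretches can be split among family members, so the values of V segments are uncertain to that extent. None of the stretches of Ighm and Igkc was shared, and 9.3% of those of Ighg2b were.

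Ighm, the constant gene of the μ heavy chain, was the most abundant member and was lower in every KO library (ENSMUSG00000076617, chr12:113418558-113422730, minus strand). Its mean of 14.67 placed it at percentile 99.2 of the deposited values of all genes, for which no correction for length is stated. It read 15.10, 15.09 and 15.08 in ERT2 WT libraries, 15.05, 15.08 and 15.09 in Cre-ERT2 WT libraries, 14.28, 14.30 and 14.29 in ERT2 KO libraries and 14.25, 14.26 and 14.23 in Cre-ERT2 KO libraries. The 6 KO libraries lay below the 6 WT libraries with a gap several times the spread within either. Ighm fell by 0.80 in ERT2 KO relative to ERT2 WT libraries (SE 0.018, limma adjusted p 1.20e-12) and by 0.83 in Cre-ERT2 libraries (adjusted p 7.27e-13), that is, to 57.4% and 56.2% of the WT level on the deposited scale. The summed unlogged level of the 10 B lineage markers ran from 113404 to 114697 in ERT2 WT and 110080 to 112359 in Cre-ERT2 WT libraries, against 86093 to 86236 in ERT2 KO and 80739 to 81885 in Cre-ERT2 KO libraries, so the sum was lower in KO libraries too. Of the 10 markers, 8 were called lower in ERT2 and 9 in Cre-ERT2 libraries, where 29.3% and 28.6% of all genes were called lower. Pax5 (-0.030) and Ebf1 (-0.045) were not called in ERT2 and Igll1 (-0.065) was not called in Cre-ERT2 libraries. The part of these 10 markers in the fall of Ighm was not tested. In a bulk sample, fewer cells with the transcript and less transcript per cell cannot be told apart.

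Ighd, the δ constant gene that lies directly behind Ighm and shares its primary transcript, moved less (ENSMUSG00000104213, chr12:113406604-113416324). It read 8.75, 8.79 and 8.79 in ERT2 WT, 8.83, 8.86 and 8.86 in Cre-ERT2 WT, 8.57, 8.64 and 8.47 in ERT2 KO, and 8.65, 8.77 and 8.81 in Cre-ERT2 KO libraries. KO and WT libraries did not overlap within either vector, but the highest Cre-ERT2 KO libraries lay above the lowest ERT2 WT library. The difference was called in ERT2 libraries, where Ighd fell by 0.22 (SE 0.046, adjusted p 0.00117), and not in Cre-ERT2 libraries, where it was -0.11 (adjusted p 0.0607).

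Ighg2b, a γ constant gene used after class switching, was near the low end of the table (ENSMUSG00000076613, chr12:113302965-113307933). It read 4.64, 4.65 and 4.67 in ERT2 WT, 4.70, 4.70 and 4.70 in Cre-ERT2 WT, 4.84, 4.75 and 4.79 in ERT2 KO, and 4.71, 4.74 and 4.70 in Cre-ERT2 KO libraries. The 3 ERT2 KO libraries were the highest of the 12. Ighg2b was 0.14 higher in ERT2 KO than in ERT2 WT libraries (adjusted p 7.12e-05) and was not called in Cre-ERT2 libraries (0.016, 95% interval -0.029 to 0.061).

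Igkc, the kappa light chain constant gene, was near the low end of the table, at percentile 10.4 of the deposited values (ENSMUSG00000076609, chr6:70726435-70726966, plus strand). It read 3.93, 3.96 and 3.95 in ERT2 WT, 4.07, 4.03 and 4.03 in Cre-ERT2 WT, 3.92, 3.92 and 3.92 in ERT2 KO, and 3.93, 3.96 and 3.92 in Cre-ERT2 KO libraries. The Cre-ERT2 WT libraries were the highest, the ERT2 KO libraries lay below those of ERT2 WT, and the Cre-ERT2 KO libraries overlapped those of ERT2 WT. Igkc was 0.11 lower in KO than WT among Cre-ERT2 libraries (limma adjusted p 3.57e-05) and was not called among ERT2 libraries (-0.027, adjusted p 0.121).

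**Figure D1:**
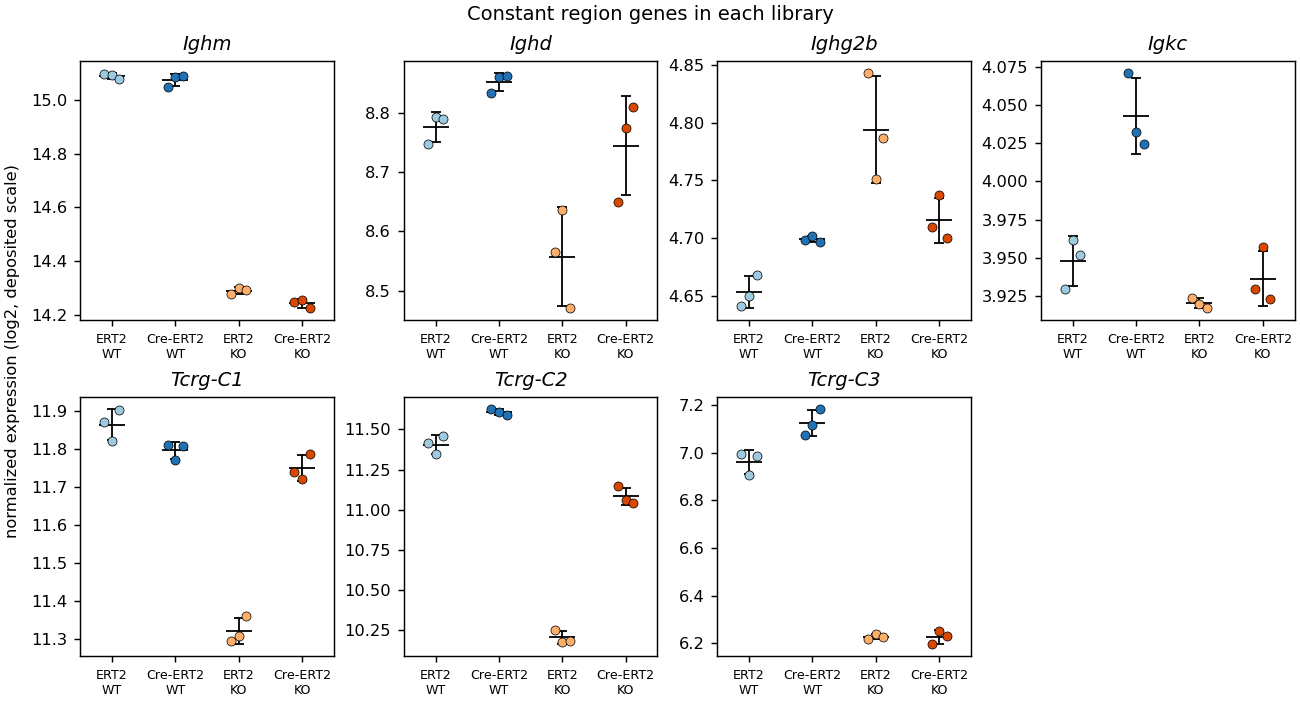
Normalized expression (log2, deposited scale) of the 7 constant region genes in each of the 12 libraries, by group; points are libraries, horizontal lines are group means and bars are 1 SD (n = 3), and each panel has its own vertical scale. Ighm and Tcrg-C3 were lower in all 6 KO libraries than in all 6 WT libraries, whereas Tcrg-C1 was low in ERT2 KO libraries and near the WT level in Cre-ERT2 KO libraries.

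The first question was which segments differed between KO and WT lines. In ERT2 libraries 21 of 29 members (72.4%) were called, 7 higher and 14 lower in KO, where 59.0% of all genes were called, with 29.8% higher and 29.3% lower. In Cre-ERT2 libraries 20 of 29 (69.0%) were called, 7 higher and 13 lower, where 58.9% of all genes were called, with 30.4% higher and 28.6% lower. After centering of every library on its own median, which moved the median of all genes to -0.0305 and -0.0321, the members split into 6 higher and 21 lower in ERT2 libraries and 5 higher and 21 lower among those with Cre-ERT2, and all genes into 2866 higher and 4747 lower and into 2983 higher and 4789 lower. The median difference over members was -0.026 in ERT2 and -0.021 in Cre-ERT2 libraries, beside 0.0016 over all genes in each.

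Many of the called differences were small. Of the 29 members 15 had means under 4, a range in which the median absolute difference between ERT2 KO and ERT2 WT libraries over all 1290 genes was 0.017 and 30.2% of genes were called. Of the members 4 differed by at least 0.5 in ERT2 libraries (Ighm, Tcrg-C1, Tcrg-C2 and Tcrg-C3) and 3 of these did so in Cre-ERT2 libraries (Ighm, Tcrg-C2 and Tcrg-C3), as did 895 genes of the table in ERT2 libraries.

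**Figure D2:**
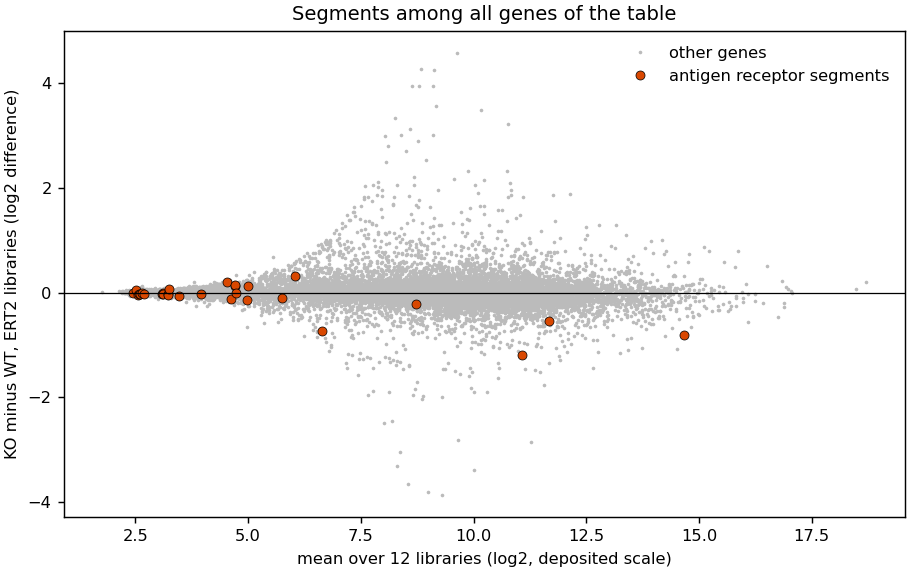
Difference between ERT2 KO and ERT2 WT libraries (log2) against the mean over the 12 libraries (log2, deposited scale) for all 12151 genes, with the 29 antigen receptor segments in orange. The 22 V segments lie at the left, where differences of all genes are small, and Ighm, Tcrg-C1, Tcrg-C2 and Tcrg-C3 lie between -0.54 and -1.20.

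The heavy chain V segments, which encode the antigen-binding part of the chain, split by their place in the locus. The 14 members lay in a pair of stretches upstream of Ighm. The near stretch ran from 155.8 to 637.1 kb from the 5′ end of Ighm and held 7 members (Ighv5-2, Ighv2-2, Ighv5-4, Ighv2-9, Ighv14-1, Ighv14-2 and Ighv14-3) of 42 annotated segments. The far stretch ran from 1568.4 to 2084.8 kb and held 7 members (Ighv1-47, Ighv1-52, Ighv1-53, Ighv8-6, Ighv1-55, Ighv1-62-1 and Ighv1-64) of 28 annotated. None of the 84 annotated segments in the 931.3 kb between them was in the table. The stretches were divided at the widest gap after the values had been seen, so no test of the division is given.

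Near members were higher in KO lines and far members were lower or not called. In ERT2 libraries 6 of 7 near members were higher in KO and none was lower, and 4 of 7 far members were lower and none was higher, where 29.8% of all genes were higher and 29.3% lower. The 4 far members were Ighv1-47, Ighv1-53, Ighv1-62-1 and Ighv1-64. In Cre-ERT2 libraries 7 of 7 near members were higher and 4 of 7 far members were lower, where 30.4% of all genes were higher and 28.6% lower. Of these 4, Ighv1-53 kept its call whichever library was left out, and Ighv1-52, Ighv1-55 and Ighv1-64 each lost it without replicate 3 of Cre-ERT2 KO, and without 1 or more of the other Cre-ERT2 libraries. Only Ighv1-53 and Ighv1-64 were called lower with both vectors. Among the near members, 3 spanned less than 0.01 over the 6 WT libraries, as described below. Of all 149 such genes, 121 were higher in all 6 KO libraries. The shares of all genes are therefore not a fair comparison for these 3 near members. Differences of near members ran from -0.010 to 0.31 in ERT2 and from 0.035 to 0.36 in Cre-ERT2 libraries, and those of far members from -0.12 to -0.0054 and from -0.095 to -0.0099. Across the 14 segments, distance from Ighm and the KO against WT difference had a Spearman correlation of -0.70 in ERT2 and -0.75 in Cre-ERT2 libraries, a description only, since the segments share libraries and related sequences.

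**Figure D3:**
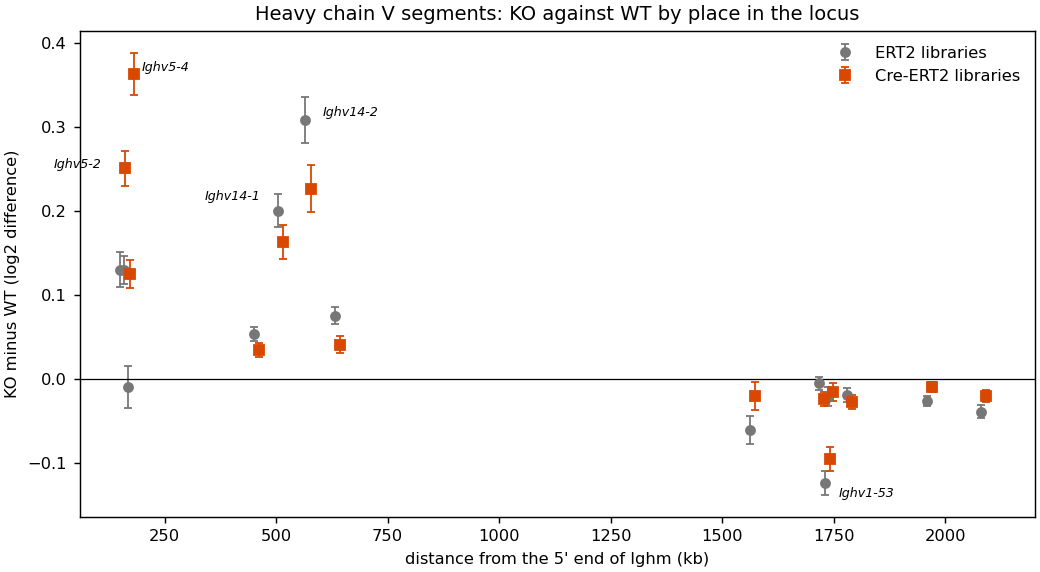
Difference between KO and WT libraries (log2) of the 14 heavy chain V segments against distance from the 5′ end of Ighm (kb), for ERT2 libraries (gray circles) and Cre-ERT2 libraries (orange squares); bars are 1 SE of the fit, and the points of a segment are set slightly to either side of its place. Near segments lie above zero except Ighv5-4 in ERT2 libraries (-0.010), and far segments lie below zero, with Ighv1-53 the lowest at -0.12.

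Ighv14-2 had the highest level of any heavy chain V member (ENSMUSG00000095583). It read 6.00, 5.90 and 5.90 in ERT2 WT, 5.87, 5.84 and 5.89 in Cre-ERT2 WT, 6.25, 6.23 and 6.24 in ERT2 KO and 6.11, 6.11 and 6.07 in Cre-ERT2 KO libraries. All 6 KO libraries lay above all 6 WT libraries. The difference was 0.31 in ERT2 (SE 0.028, limma adjusted p 8.68e-07) and 0.23 in Cre-ERT2 libraries (adjusted p 1.46e-05). Ighv14-1 and Ighv14-3 are of its family and are the nearest of the members on either side of it. They also had 6 KO libraries above 6 WT libraries, at 0.20 and 0.075 in ERT2 and 0.16 and 0.041 in Cre-ERT2 libraries. Ighv14-1 and Ighv14-2 shared 31-base stretches, and 73.2% of those of Ighv14-1 were shared with other genes, so the values of these segments are not independent.

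Some near members hardly varied across the WT libraries. Ighv2-9 spanned 7.9e-05 over its 6 WT libraries, around 2.49, and read 2.52 to 2.57 in KO libraries. Ighv14-1 spanned 0.0045 and Ighv14-3 spanned 0.0080 over the WT libraries, and their KO libraries spanned 0.10 and 0.060. Over all genes, 149 (1.23%) spanned less than 0.01 over the 6 WT libraries, these 3 members among them, and 121 of the 149 were higher in all 6 KO libraries. Whether these constant values stand for a count of 0 was not tested, since the table gives no counts.

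Ighv1-53, in the far stretch, was the V segment with the largest fall in ERT2 libraries among heavy chain members (ENSMUSG00000093894). It read 4.69, 4.67 and 4.71 in ERT2 WT, 4.65, 4.63 and 4.63 in Cre-ERT2 WT, 4.57, 4.56 and 4.58 in ERT2 KO and 4.54, 4.55 and 4.53 in Cre-ERT2 KO libraries. Every KO library lay below every WT library, and within each background the Cre-ERT2 libraries lay below the ERT2 libraries. It fell by 0.12 (SE 0.014, limma adjusted p 7.02e-06) and by 0.095 (adjusted p 7.22e-05) in KO relative to WT. The other far members read between 2.54 and 3.54 and differed between KO and WT by at most 0.061 in either direction.

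**Figure D4:**
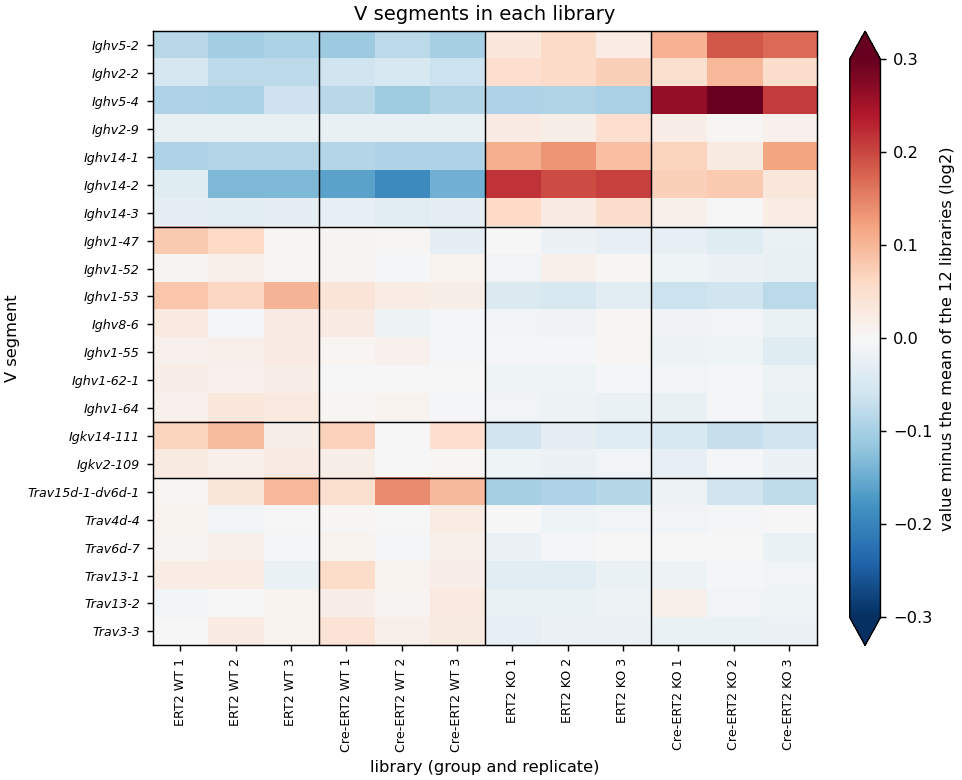
Value of each of the 22 V segments in each library minus the mean of that segment over the 12 libraries (log2; color scale ends at -0.3 and 0.3). Rows run from near to far heavy chain segments, then kappa, then T cell receptor alpha; near heavy chain segments other than Ighv5-4 are at or above their mean in KO libraries, and Ighv5-4 is above it only in the 3 Cre-ERT2 KO libraries.

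No V segment approached Ighm in level per length. On unlogged values per kilobase of exon, Ighm averaged 18490 in ERT2 WT, 18280 in Cre-ERT2 WT, 10622 in ERT2 KO and 10281 in Cre-ERT2 KO libraries, and Ighv14-2 averaged 174, 167, 216 and 195 in the same groups. Among the other V members the next highest on this scale was Igkv14-111, at 152, 149.9, 142 and 140.0. On this scale no member V segment was at a level comparable to that of the constant gene, in either background. The transformation of the deposited values is not stated, nor whether they are corrected for length. How far a low value, unlogged and divided by length, stands for transcript is therefore unknown. Whether a joined V segment outside the table was expressed was not analysed here.

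The 2 kappa V segments were lower in KO lines. Igkv14-111 (ENSMUSG00000095771, chr6:68256389-68256869) read 5.74 to 5.84 in the 6 WT and 5.68 to 5.72 in the 6 KO libraries, with no overlap, and fell by 0.10 in ERT2 and 0.098 in Cre-ERT2 libraries (limma adjusted p 0.00363 and 0.00386). Igkv2-109 read 2.69 to 2.72 in WT and 2.66 to 2.69 in KO libraries and fell by 0.035 and 0.022 (adjusted p 0.00147 and 0.0261), the latter call being lost without replicate 1 of Cre-ERT2 WT or without replicates 1 or 3 of Cre-ERT2 KO.

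The 3 constant genes of the T cell receptor gamma locus, which encode the constant part of the γ chain of γδ T cells, made up with Ighm the 4 members that differed by at least 0.5 between ERT2 KO and ERT2 WT libraries. Tcrg-C1 (ENSMUSG00000076749, chr13:19214103-19217024, plus strand), Tcrg-C3 (ENSMUSG00000091682, chr13:19260884-19263528, plus strand) and Tcrg-C2 (ENSMUSG00000076752, chr13:19304649-19307551, minus strand) are near copies. Bases 1 to 120 of their coding sequences (GENCODE M21, GRCm38) show how close they are; capitals mark bases at which Tcrg-C2 or Tcrg-C3 differs from Tcrg-C1, and in Tcrg-C1 every such base.
Tcrg-C1: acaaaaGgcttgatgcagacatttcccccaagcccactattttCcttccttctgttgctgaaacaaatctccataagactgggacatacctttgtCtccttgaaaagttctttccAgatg
Tcrg-C2: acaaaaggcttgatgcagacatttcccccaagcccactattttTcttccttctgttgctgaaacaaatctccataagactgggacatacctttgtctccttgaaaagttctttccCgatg
Tcrg-C3: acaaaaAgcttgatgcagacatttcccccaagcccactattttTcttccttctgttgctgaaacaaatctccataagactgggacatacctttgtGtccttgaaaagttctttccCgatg
In this stretch Tcrg-C2 differed from Tcrg-C1 at 2 bases and Tcrg-C3 at 4. Over their aligned coding sequences Tcrg-C1 was identical to Tcrg-C2 at 97.4% and to Tcrg-C3 at 96.8% of bases. Of their 31-base stretches, 51.0%, 45.9% and 58.6% were shared among Tcrg-C1, Tcrg-C2 and Tcrg-C3, so that part of the reads could be assigned to any of them.

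Tcrg-C2 had the largest KO against WT difference of any member in ERT2 libraries, and the largest Cre-ERT2 against ERT2 difference in both backgrounds. In Cre-ERT2 libraries Tcrg-C3 and Ighm differed more. It read 11.41, 11.34 and 11.46 in ERT2 WT, 11.63, 11.61 and 11.59 in Cre-ERT2 WT, 10.26, 10.18 and 10.19 in ERT2 KO and 11.14, 11.06 and 11.04 in Cre-ERT2 KO libraries. The 4 groups did not overlap, with ERT2 KO lowest and Cre-ERT2 WT highest. Tcrg-C2 fell by 1.20 in ERT2 KO relative to ERT2 WT libraries (SE 0.035, limma adjusted p 1.61e-11) and by 0.52 in Cre-ERT2 libraries (adjusted p 5.23e-08). It rose by 0.20 in WT and 0.88 in KO cells when Cre-ERT2 was compared with ERT2 (adjusted p 0.00252 and 5.23e-09), and the rise was 0.67 larger in KO cells (interaction, SE 0.050, adjusted p 7.34e-06).

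Tcrg-C1 differed between KO and WT in ERT2 libraries and not by the same test in Cre-ERT2 libraries. It read 11.87, 11.82 and 11.90 in ERT2 WT, 11.81, 11.77 and 11.81 in Cre-ERT2 WT, 11.29, 11.31 and 11.36 in ERT2 KO, and 11.74, 11.72 and 11.79 in Cre-ERT2 KO libraries. The 3 ERT2 KO libraries stood below the other 9, and the Cre-ERT2 KO libraries overlapped those of Cre-ERT2 WT. The difference was -0.54 in ERT2 (limma adjusted p 3.95e-09) and -0.047 in Cre-ERT2 libraries (95% interval -0.11 to 0.014). In Cre-ERT2 relative to ERT2 libraries Tcrg-C1 was 0.43 higher in KO cells (limma adjusted p 4.69e-07). In WT cells the difference was -0.068 and not called (adjusted p 0.153), with an interaction of 0.50 (SE 0.040, adjusted p 1.38e-05). Stabilization of β-catenin and line identity cannot be told apart for these differences.

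Tcrg-C3, expressed at a lower level, was lower in KO libraries of both vectors. It read 6.99, 6.90 and 6.99 in ERT2 WT, 7.07, 7.12 and 7.18 in Cre-ERT2 WT, 6.22, 6.24 and 6.23 in ERT2 KO, and 6.196, 6.25 and 6.23 in Cre-ERT2 KO libraries. All KO libraries lay below all WT libraries, and the KO groups overlapped each other. Tcrg-C3 fell by 0.73 and 0.90 in KO relative to WT (limma adjusted p 8.50e-10 and 1.09e-10), and with Cre-ERT2 it rose by 0.16 in WT cells (adjusted p 0.00549) and showed -0.00034 in KO cells (95% interval -0.071 to 0.070). The interaction was -0.16 and was not called (adjusted p 0.0713).

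On unlogged values per kilobase of exon, Tcrg-C1 averaged 4034 and Tcrg-C2 2969 in ERT2 WT libraries, below Ighm and above Ighd at 231. Trgv2, a V segment of the same locus that the symbol rule does not take, read 2.84 to 2.90 in the 12 libraries and was not called in any of the 5 contrasts. Of the T cell markers in the table, Lck fell by 1.45 and by 1.93 and Cd2 fell by 1.58 and fell by 1.43 in KO relative to WT (ERT2, then Cre-ERT2), while Cd28 rose by 0.39 and 1.91. Lat was not called in ERT2 libraries (0.0090, limma adjusted p 0.785) and fell by 0.24 in Cre-ERT2 libraries. The summed unlogged level of these 4 markers ran from 3914 to 4010 in ERT2 WT, 4434 to 4491 in Cre-ERT2 WT, 2543 to 2628 in ERT2 KO and 2845 to 3020 in Cre-ERT2 KO libraries, so it was lower in KO than in WT libraries and higher with Cre-ERT2 in each background. With Cre-ERT2 in WT cells, Lck rose by 0.81, Cd28 by 0.44 and Lat by 0.23, and Cd2 fell by 0.17. In KO cells Cd28 rose by 1.96 and Lck by 0.33, and Lat (-0.019) and Cd2 (-0.018) were not called. The part of these 4 markers in the differences of the T cell receptor gamma genes was not tested.

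The 6 T cell receptor alpha V segments, which encode the variable part of the α chain, were at the low end of the table, with means of 2.44 to 4.97. They are Trav15d-1-dv6d-1, Trav4d-4, Trav6d-7, Trav13-1, Trav13-2 and Trav3-3, all on the plus strand of chromosome 14. In each KO against WT comparison 3 of 6 were lower in KO (Trav15d-1-dv6d-1, Trav13-1 and Trav3-3) and none was higher. The share called was below the 59.0% and 58.9% of all genes called in ERT2 and Cre-ERT2 libraries, with 29.3% and 28.6% of all genes lower. Trav15d-1-dv6d-1 read 4.98 to 5.12 in the 6 WT and 4.88 to 4.96 in the 6 KO libraries, with no overlap, and fell by 0.14 in both comparisons (limma adjusted p 8.18e-04 and 5.83e-04). Trav3-3 fell by 0.031 and 0.047, and Trav13-1 by 0.037 in each. The 6 KO libraries of Trav3-3 spanned only 0.0085, a limit on its comparison with all genes that is described below. The call of Trav13-1 was lost without replicates 1 or 2 of either ERT2 group, and in Cre-ERT2 libraries without replicate 1 of WT or replicates 1 or 3 of KO. From 52.2% to 100.0% of the 31-base stretches of these segments occurred in other genes. The mouse alpha locus is known for duplicated blocks of V segments.

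The next question was which segments responded to stabilized β-catenin. In WT cells 4 of 29 members (13.8%) were called, where 11.9% of all genes were called, 5.93% higher and 5.95% lower. Tcrg-C2, Tcrg-C3 and Igkc rose (by 0.20, 0.16 and 0.095) and Ighv1-53 fell by 0.056, a call lost without replicates 1 or 3 of ERT2 WT or replicates 2 or 3 of Cre-ERT2 WT. In KO cells 8 of 29 members (27.6%) were called, where 12.6% of all genes were called, 7.27% higher and 5.33% lower. Tcrg-C2, Tcrg-C1, Ighv5-4, Ighd and Ighv5-2 rose (by 0.88, 0.43, 0.36, 0.19 and 0.12) and Ighv14-2, Ighg2b and Ighv14-3 fell by 0.15, 0.078 and 0.033. Without replicate 3 of ERT2 KO, 5 members were called, Ighd, Ighg2b and Ighv14-3 being lost. None of the 6 alpha V segments and none of the 7 far heavy chain segments was called in KO cells.

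Ighv5-4 was the V segment with the largest response and was raised in 1 group only (ENSMUSG00000095612). It read 4.65, 4.64 and 4.68 in ERT2 WT, 4.66, 4.63 and 4.65 in Cre-ERT2 WT, 4.64, 4.65 and 4.64 in ERT2 KO, and 5.002, 5.07 and 4.95 in Cre-ERT2 KO libraries. The other 9 libraries spanned 4.63 to 4.68, all below the 3 Cre-ERT2 KO libraries. It rose by 0.36 with Cre-ERT2 in KO cells (SE 0.025, limma adjusted p 7.38e-07), showed -0.010 in WT cells (95% interval -0.064 to 0.044), and had an interaction of 0.37 (SE 0.035, adjusted p 5.37e-05). The labels do not say whether the Cre-ERT2 KO and ERT2 KO libraries came from the same line. Stabilization of β-catenin and line identity cannot be told apart for this segment or for the other members.

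Ighv5-2, which lies closer to Ighm on the same strand, was raised in both KO groups (ENSMUSG00000076633). It read 4.92, 4.91 and 4.91 in ERT2 WT, 4.90, 4.93 and 4.91 in Cre-ERT2 WT, 5.04, 5.07 and 5.03 in ERT2 KO and 5.11, 5.19 and 5.18 in Cre-ERT2 KO libraries. All KO libraries were above all WT libraries, and those of Cre-ERT2 KO were above those of ERT2 KO. The KO against WT difference was 0.13 in ERT2 and 0.25 in Cre-ERT2 libraries (limma adjusted p 1.60e-04 and 4.02e-07). The β-catenin effect was 0.12 in KO cells (adjusted p 0.00273) and -0.0044 in WT cells (adjusted p 0.94). Ighv2-2, which lies between Ighv5-2 and Ighv5-4, was 0.13 and 0.12 higher in KO but was called in neither β-catenin comparison (0.012 in WT and 0.0068 in KO cells).

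**Figure D5:**
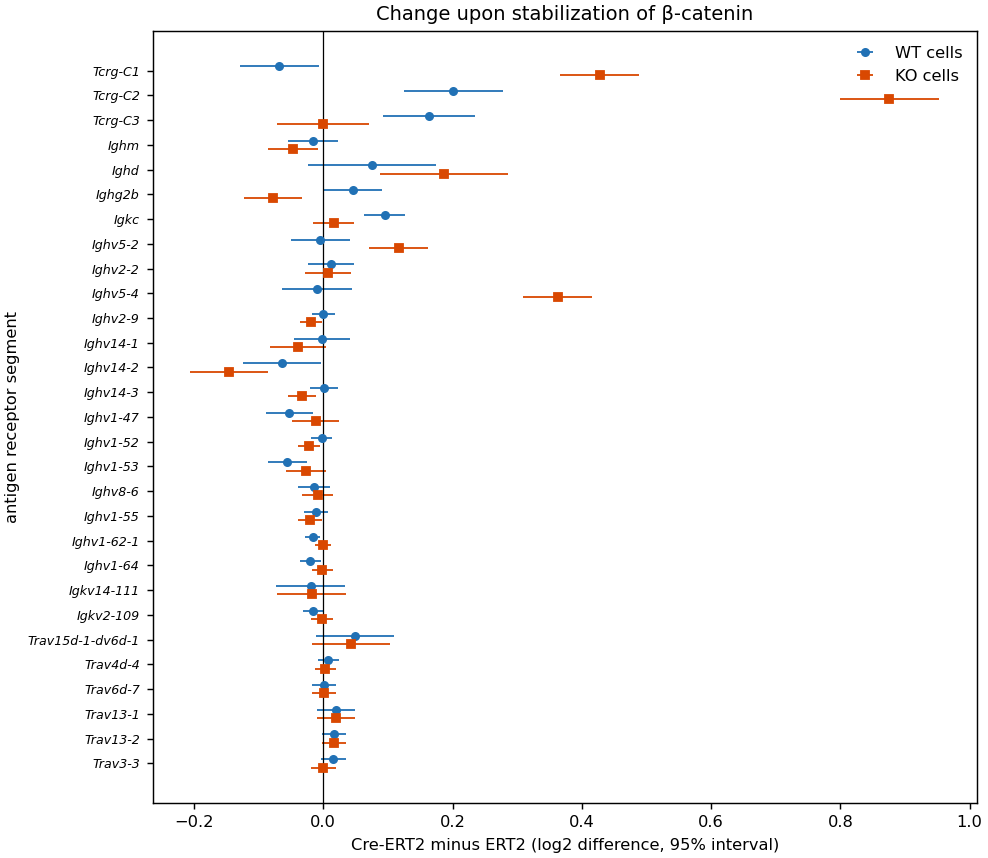
Difference between Cre-ERT2 and ERT2 libraries (log2) for each of the 29 members, in WT cells (blue circles) and KO cells (orange squares); bars are 95% intervals of the fit. Tcrg-C1, Tcrg-C2 and Ighv5-4 stand apart in KO cells, at 0.43, 0.88 and 0.36, and most V segments lie close to zero in both.

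The β-catenin effect differed between KO and WT cells for 6 of 29 members (20.7%), where 4.53% of all genes were called in the interaction, 2.71% higher and 1.82% lower. It was larger in KO cells for Tcrg-C2, Tcrg-C1, Ighv5-4 and Ighv5-2, and lower for Ighg2b and Igkc. The calls of Tcrg-C2, Tcrg-C1 and Ighv5-4 held whichever library was left out, and those of Ighv5-2, Ighg2b and Igkc did not. Only Tcrg-C2, Tcrg-C1 and Ighv5-4 were called without replicate 1 or 2 of ERT2 WT, replicate 2 of Cre-ERT2 WT, or replicate 3 of ERT2 KO or of Cre-ERT2 KO.

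As a description of line identity, the 12 libraries were also read by background alone. For 16 of 29 members all 6 KO libraries lay on 1 side of all 6 WT libraries, where this held for 45.2% of all genes. KO libraries were above for 6 members, all near heavy chain V segments (background 23.3% above), and below for 10 (background 21.9%), namely Ighm, Tcrg-C2, Tcrg-C3, Ighv1-53, Ighv1-62-1, Ighv1-64, Igkv14-111, Igkv2-109, Trav15d-1-dv6d-1 and Trav3-3. Of the 6 near segments, 3 spanned less than 0.01 over the WT libraries. Among all 149 such genes 121 were above in KO, so 23.3% is not a fair comparison for those 3 segments. Of the 10 members below, Trav3-3 spanned 0.0085 over the 6 KO libraries. Among all 78 genes that spanned less than 0.01 there, 60 were below in KO, so 21.9% is not a fair comparison for Trav3-3. By vector, no member had its 6 Cre-ERT2 libraries apart from its 6 ERT2 libraries (background 2.06%). The 16 members were counted because their KO and WT libraries separated, so that they sort the libraries by background is given by construction. Many other genes separate in the same way, and these patterns do not tell a founder line from the edited genes.

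Genes that act with the segments were also counted. Of 12 listed receptor partners, 6 were in the table, and in ERT2 libraries 6 of 6 were lower in KO, with 5 of 6 lower in Cre-ERT2 libraries, where 29.3% and 28.6% of all genes were lower. They were Cd79a and Cd79b, the signaling chains of the B cell receptor, Igll1, Vpreb1 and Vpreb2, the surrogate light chain, and Vpreb3. Their median difference was -0.54 in ERT2 and -0.51 in Cre-ERT2 libraries, and none reached a difference of 1. Cd79a fell by 0.79 in ERT2 and fell by 0.76 in Cre-ERT2 libraries, close to the fall of Ighm, and Igll1, the exception, was -0.065 in Cre-ERT2 libraries. In β-catenin comparisons 4 of 6 were lower in WT cells, where 5.95% of all genes were lower. In KO cells 3 were lower and 1 higher, where 5.33% of all genes were lower and 7.27% higher.

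All 14 recombination genes were in the table, and none of them differed by 1 or more. In KO relative to WT, 4 were higher and 5 lower in ERT2 libraries, and 5 were higher and 5 lower in Cre-ERT2 libraries, beside 59.0% and 58.9% of all genes called in either direction. Rag1 and Rag2, the subunits of the recombinase, rose by 0.32 and 0.38 in ERT2 and by 0.34 and 0.44 in Cre-ERT2 libraries. Dntt, the polymerase that adds untemplated bases at joins, fell by 0.87 and 0.40, and Lig4, the ligase that seals them, fell by 0.79 and 0.96. In Cre-ERT2 relative to ERT2 libraries Dntt was 0.30 higher in WT and 0.77 higher in KO cells, with an interaction of 0.47 (limma adjusted p 2.05e-06).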

How the data were processed

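RNA-seq libraries were prepared from polyadenylated RNA with a stranded kit, and the submitters' processing notes name Salmon 1.4.0, STAR 2.7.6 and DESeq2 1.30.1 with mm10/GRCm38. The deposited values, 1 per library for each of 12151 genes, are on a log2 scale that the authors had normalized across libraries. The transformation is not stated and the table holds no counts, so depth and counting error are unknown, and a change of a gene with a low value may be understated. The members and gene lists were chosen with earlier results of these data known. A further list of pathway genes is not reported here.

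Groups were taken from the sample titles. The log2 values were used as deposited, without a filter. Limma 3.58.1 (R 4.3.3) was used to fit 4 group means over the 12 libraries, with eBayes and its mean-dependent prior. The design had allowed for unlogged values, which would have been logged first. P values were adjusted over the 12151 genes (Benjamini-Hochberg) in each of 5 contrasts, and genes were called at an adjusted p under 0.05. An exact 2-sided permutation test of 3 against 3 libraries allows no p below 0.1. The fit was tested on simulated data.

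Values in every library are given for each constant gene, and for V segments called in the interaction or called in both KO against WT comparisons with a difference of at least 1 in either; Ighv14-2, Ighv1-53 and other V segments with values were named after their values were seen. Positions, coding sequences and shared 31-base stretches came from GENCODE M21 on GRCm38, with Biopython 1.88; the study's own annotation was a later release. Alternatives were a replicate block, 2 scalings, no mean-dependent prior, a pseudocount of 1 on unlogged values, a filter on the lowest 25% of means, a difference threshold of 0.25 (treat), fits to the groups compared alone, an adjusted p under 0.01, and leaving out each library.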

Additional observations from a re-analysis of the deposited data

Results flagged for a closer look

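The response to β-catenin differed between KO and WT cells for 6 members by the test of the difference itself (limma, adjusted over all genes), which brought each of them here. The difference was 0.6746 for Tcrg-C2 (SE 0.050, adjusted p 7.34e-06), 0.4955 for Tcrg-C1 (SE 0.040, adjusted p 1.38e-05), 0.3727 for Ighv5-4 (SE 0.035, adjusted p 5.37e-05) and 0.121 for Ighv5-2 (SE 0.030, adjusted p 0.0391), all larger in KO cells. It was -0.1244 for Ighg2b (SE 0.029, adjusted p 0.0326), which read 0.046 higher with Cre-ERT2 in WT and 0.078 lower in KO cells. It was -0.07891 for Igkc (SE 0.020, adjusted p 0.0491), which rose by 0.095 in WT cells and showed 0.016 in KO cells. For Tcrg-C1 and Tcrg-C2 the ERT2 KO libraries were the lowest of the 12, and for Ighv5-4 the Cre-ERT2 KO libraries were the highest.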

How the results depend on the processing

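No called difference of a member changed direction under any alternative. With the lowest 25% of means left out, which removes most members by construction, members called fell to 1 (β-catenin in WT), 3 (β-catenin in KO), 4 (KO against WT in ERT2), 2 (KO against WT in Cre-ERT2) and 2 (interaction). Against a difference threshold of 0.25 they were 0, 3, 4, 4 and 2 in the same order, and genes called were 63, 105, 1595, 1622 and 33. At an adjusted p under 0.01, genes called were 787 and 790 for β-catenin in WT and KO cells and 240 for the interaction, and members called were 5 for β-catenin in KO cells and 3 for the interaction. A fit to the KO libraries alone called 934 genes and 5 members for β-catenin, and the fit without the mean-dependent prior called 3 members in the interaction. When single libraries were left out, members called ranged from 5 to 8 for β-catenin in KO cells and from 3 to 5 for the interaction. Other causes of these changes were not tested.

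Same-numbered libraries did not deviate together in any comparison by a correlation over 0.1 in every pair (the range over the 4 comparisons was -0.0684 to 0.313). Weak correlations cannot exclude pairing, so whether same-numbered libraries are paired is not known. For β-catenin in KO cells every library correlated best with its own number (0.0767 to 0.132), a hint from the data and not from the design, and in the other 3 comparisons this did not hold. With the replicate number as a block, members called were 5 and 8 for β-catenin in WT and KO cells, 21 and 20 for KO against WT, and 4 for the interaction, where Ighg2b and Igkc lost their calls.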
